A study of Mus musculus with 15 samples.

Results

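Creatine kinases, the enzymes that make creatine and its transporter were followed in primary mouse oligodendrocyte precursor cells (OPCs) and in oligodendrocytes (OLs) differentiated from them, with and without the serum response factor gene Srf. The 7 genes are Ckmt1, Ckb, Ckmt2, Ckm, Gatm, Gamt and Slc6a8, matched by symbol among the 45706 genes of each deposited table. The set was chosen by the measured values of Ckmt1, which were higher in SRF-KO OPCs than in control OPCs, so the members' values in that contrast are given as a description without a test. All cells were purified from brains of SRF-floxed/floxed mice, and control cells carry the floxed alleles too. The 4 SRF-KO OL libraries come from cells infected with a Cre lentivirus on day 6 and frozen on day 3 of differentiation. The 4 control OL libraries come from cells given the GFP virus on the same schedule. The 3 SRF-KO OPC libraries received AAV DJ carrying eGFP-cre under the CMV promoter on culture day 3 and were frozen 48 h later. The 4 control OPC libraries received the same virus with a deleted cre. No library has Cre without floxed alleles, so Cre itself and the loss of Srf cannot be told apart. Animal age and whether replicates were separate cultures are not given in the sources used here, so p-values measure only the spread between these samples.

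Creatine kinases move a phosphate group between ATP and creatine, which lets cells buffer ATP and carry high-energy phosphate from mitochondria to the places that spend it. Ckmt1 (ubiquitous mitochondrial creatine kinase) and Ckmt2 (sarcomeric mitochondrial creatine kinase) sit in mitochondria, while Ckb (brain type) and Ckm (muscle type) are cytosolic. Creatine is made in 2 steps: Gatm joins arginine and glycine to guanidinoacetate, and Gamt methylates that to creatine, while Slc6a8 imports creatine from outside. In the brain, oligodendrocytes are known for their Gamt. SRF is a transcription factor that binds the CArG box, and Ckm is one of its known targets in muscle.

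The promoter windows of the members were read from RefSeq on GRCm38.p6, and those of Ckmt1 and Ckb are shown because these kinases carry most of the results. Ckmt1 has 2 annotated starts, and the windows are the 250 bases before each. Capitals mark a TATAAA box read on the other strand (TTTATA) in the first Ckmt1 window and, in Ckb, a MEF2 box that overlaps a TATAAA box.
Ckmt1, first start (chr2:121357526-121357775, + strand): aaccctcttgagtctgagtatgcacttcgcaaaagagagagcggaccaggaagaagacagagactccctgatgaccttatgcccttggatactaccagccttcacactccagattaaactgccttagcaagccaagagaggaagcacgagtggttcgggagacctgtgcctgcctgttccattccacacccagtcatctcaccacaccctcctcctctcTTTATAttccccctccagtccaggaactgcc
Ckmt1, second start (chr2:121358360-121358609, + strand): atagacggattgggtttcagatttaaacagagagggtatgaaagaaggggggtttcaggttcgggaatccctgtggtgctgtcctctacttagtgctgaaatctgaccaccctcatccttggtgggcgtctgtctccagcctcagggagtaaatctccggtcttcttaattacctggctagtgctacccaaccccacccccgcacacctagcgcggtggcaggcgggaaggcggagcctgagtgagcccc
Ckb (chr12:111672339-111672588, - strand): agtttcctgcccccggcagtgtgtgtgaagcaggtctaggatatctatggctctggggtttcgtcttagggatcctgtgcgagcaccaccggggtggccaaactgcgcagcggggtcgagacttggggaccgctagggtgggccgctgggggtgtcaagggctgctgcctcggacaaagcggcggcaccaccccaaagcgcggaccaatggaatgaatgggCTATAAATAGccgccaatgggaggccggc
The TTTATA of Ckmt1 began 31 bases upstream of its start, and the MEF2 box of Ckb 29 bases upstream. Windows of 300 bases, the 50 bases after the start included, were searched on both strands for the CArG box, the MEF2 box and TATAAA. Among 32851 such windows of all genes, 1.63% held a CArG box, 0.557% a MEF2 box and 13.6% a TATAAA on either strand. No window of the 6 members with an entry held a CArG box. A match or its lack describes these letters only.

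Depth ranged between 4303739 and 11721394 expected counts in SRF-KO OLs, 7188698 and 13139258 in control OLs, 9074812 and 15125229 in SRF-KO OPCs, and 8964310 and 16026511 in control OPCs. Srf averaged 3.06 ± 0.98 CPM (read counts adjusted for library size) in SRF-KO OLs and 8.29 ± 0.96 CPM in control OLs (SD, n = 4 each). It averaged 0.21 ± 0.01 CPM in SRF-KO OPCs (n = 3) and 7.87 ± 1.71 CPM in control OPCs (SD, n = 4), with no overlap at either stage. In OL libraries the Srf count shares unstranded gene-body reads with Gm26904, which lies across the whole gene on the other strand. The OPC marker Pdgfra had 480 to 566 CPM in SRF-KO OPCs and 547 to 580.3 CPM in control OPCs. It had 54.5 to 74.4 CPM in SRF-KO OLs and 49.4 to 53.4 CPM in control OLs. The myelin gene Mbp averaged 5904 ± 865 CPM in SRF-KO OLs and 9556 ± 2736 CPM in control OLs (SD, n = 4 each). In OPCs Mbp averaged 13.1 CPM in SRF-KO and 13.7 CPM in control libraries. Pdgfra and Mbp thus followed the labels. Of the 8 OPC markers, however, edgeR called 5 higher and 3 lower in OLs than in OPCs, in controls and in knockouts. Of all genes, 42.5% were called higher and 37.1% lower in controls, and 37.6% and 28.9% in knockouts. Astrocyte markers were also high in OL libraries: all 8 listed were detected, with Gfap at 4778 to 8977 CPM in SRF-KO OLs and 12256 to 28228 CPM in control OLs. Microglia, endothelial and mural, and fibroblast markers each summed to at most 14.96 CPM in any library. CPM are scaled by TMM, a factor that aligns most genes between libraries, within each stage.

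Ckmt1 (ENSMUSG00000000308, chr2:121357714-121363737, + strand, GRCm38) is the gene the set was built around. It had 71.6, 76.9 and 70.1 CPM in SRF-KO OPCs, against 43.9, 49.8, 42.3 and 38.1 CPM in control OPCs. Each SRF-KO OPC library lay above each control OPC library. The log2 fold change was 0.74, the 97.6th percentile of the 13271 genes tested, and stayed between 0.68 and 0.82 over the 12 refits. These values chose the gene; as background, 12.2% of genes tested in that contrast had groups that did not overlap and 0.0678% were called by edgeR. Of the 8 astrocyte markers, 7 also had positive log2 fold changes in these libraries. Those of Aqp4 (0.77), Gja1 (0.65), Gfap (0.52) and Slc1a3 (0.22) came with groups that did not overlap, and Gfap had 79.3 to 86.3 CPM in SRF-KO OPCs and 39.9 to 76.7 CPM in control OPCs. The other direction was seen for Sox9, at 373 to 451 CPM in SRF-KO OPCs and 476 to 569 CPM in control OPCs. With Sox9 among the most abundant of the list, the 8 markers summed to 1465 to 1621 CPM in SRF-KO OPCs and 1419 to 1499 CPM in control OPCs, which overlap. The part of astrocyte RNA in the Ckmt1 level was not tested.

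The OL libraries give Ckmt1 a measurement apart from the OPC values that chose it. The gene had 1.86, 1.60, 1.65 and 2.26 CPM in SRF-KO OLs, against 0.47, 0.79, 0.61 and 0.91 CPM in control OLs. Every SRF-KO OL library was above every control OL library, at a level far below that of OPCs. These CPM rest on 22, 20, 8 and 12 counts in SRF-KO OLs and 5, 9, 4 and 13 counts in control OLs. Pooled, 62 and 31 counts give a ratio of SRF-KO OL to control OL of 2.88, with a 95% exact interval of 1.84 to 4.58 for counting error alone. In the edgeR fit of 15193 genes this was a log2 fold change of 1.34, and Ckmt1 was not called. Ckmt1 passed the low-count filter only through the SRF-KO OLs. All 4 of these libraries exceeded the filter's 0.884 CPM limit, against 1 of 4 control OL libraries. The gene thus entered the fit through the group in which it is higher, so its p-values are not given. Groups did not overlap for 8.09% of genes tested in OLs and 0.296% were called. Over the 13 refits the log2 fold change of Ckmt1 ranged between 1.18 and 1.54, and none called it. The log2 ratio of mean CPM by library totals was 1.59. Deposited TPM was 1.77, 1.83, 3.85 and 1.32 in SRF-KO OLs and 0.79, 0.66, 0.75 and 1.22 in control OLs, without overlap. It rests on the same counts, divided by a length that varied between libraries, so it is not a second measurement. The length listed for Ckmt1 was 1356 to 3567 bases in SRF-KO OLs and 1093 to 2312 bases in control OLs. Ckmt1 is also known in neurons, and the 8 neuron markers summed to 112 to 185 CPM in SRF-KO OLs and 127 to 158 CPM in control OLs, with none at 0 in every library. They summed to 44.6 to 49.7 CPM in SRF-KO OPCs and 48.7 to 54.8 CPM in control OPCs. The OL sums are mostly Tubb3, with 103 to 169 CPM in SRF-KO OLs and 118 to 149 CPM in control OLs. Of the 6 neuron markers tested in OLs, 4 had positive log2 fold changes: Snap25 (0.83), Stmn2 (0.66), Gad1 (0.60) and Syt1 (0.19). Stmn2, the most abundant of these 4, averaged only 3.89 CPM in SRF-KO OLs and 2.37 CPM in control OLs. The others went the other way, down to -0.09, and the median of the 6 was 0.39. None of the 6 was called, and the part of neuronal RNA in the Ckmt1 level was not tested.

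**Figure D1:**
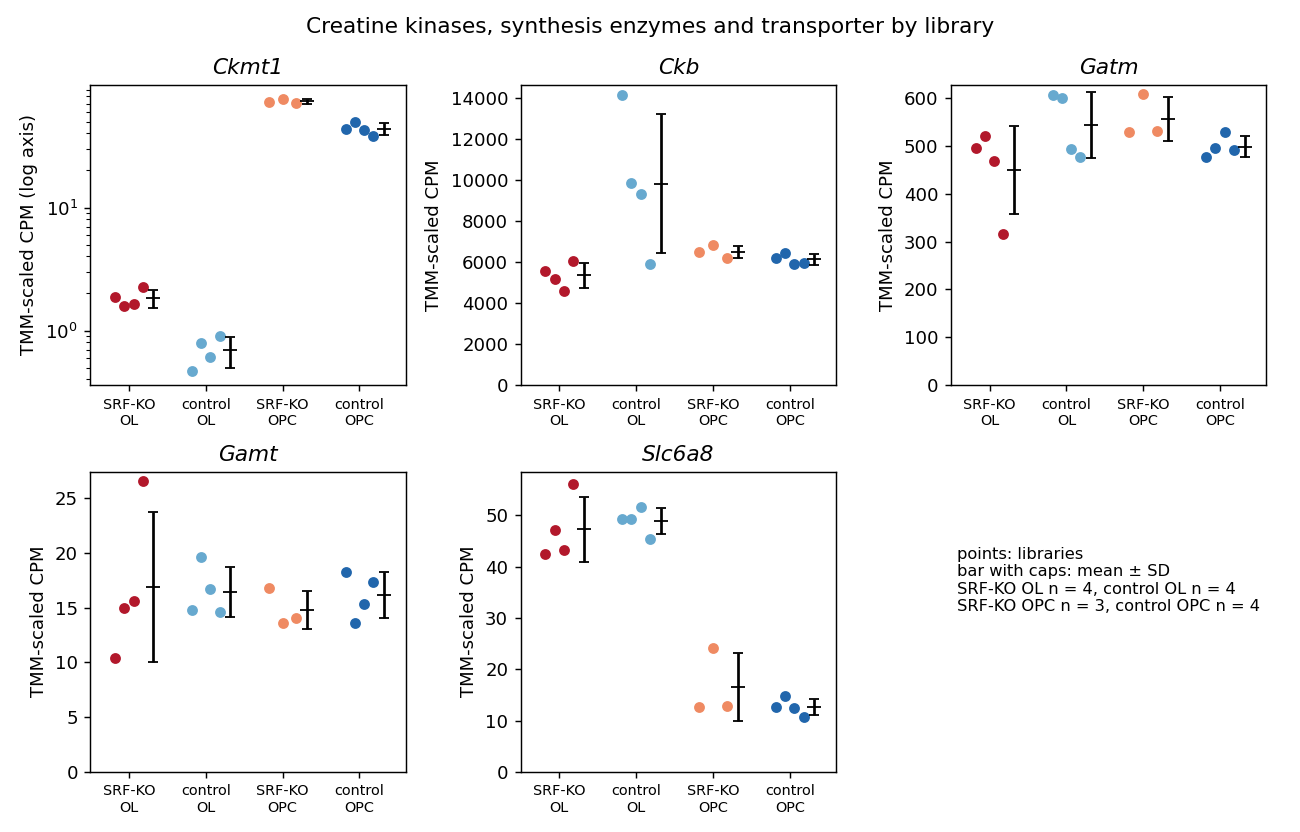
TMM-scaled CPM (y axis; log axis for Ckmt1) of the 5 members above the low-count filter, by group (x axis). Points are libraries and bars are the mean ± SD. Ckmt1 averages 1.84 CPM in SRF-KO OLs and 0.69 in control OLs, and 72.9 CPM in SRF-KO OPCs and 43.5 in control OPCs; the control OL libraries of Ckb spread most.

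Ckb (ENSMUSG00000001270, chr12:111669361-111672338, - strand), the brain-type cytosolic kinase, was among the most abundant transcripts of these cells. It ranked 12th to 14th by count in SRF-KO OL libraries, 8th to 13th in control OLs, 5th in SRF-KO OPCs, and 5th or 6th in control OPCs. In OLs it had 5561, 5187, 4582 and 6060 CPM in SRF-KO libraries, against 14162, 9875, 9340 and 5914 CPM in control libraries. Control OL replicates 1 to 3 lay above all SRF-KO OLs, and control OL replicate 4 lay just below SRF-KO OL replicate 4. The log2 fold change was -0.88 (SE 0.26, adjusted p = 0.221, edgeR), so the gene was not called. DESeq2 gave -0.89 with adjusted p = 0.015 and called it, among 290 of 15100 genes called in OLs. Over the 13 refits the log2 fold change stayed between -1.06 and -0.62, and the log2 ratio of mean deposited TPM was -0.52. As a share of all counts, with no TMM factor, Ckb made up 0.518% to 0.626% of SRF-KO OL libraries and 0.644% to 1.18% of control OL libraries, which do not overlap. Deposited TPM was 4248 to 5308 in SRF-KO OLs and 6117 to 8471 in control OLs, also without overlap. In TMM-scaled CPM, in which Ckb overlapped, 8.09% of genes tested did not overlap. That share was not computed on the other scales, so the lack of overlap there has no background to be read against.

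The astrocyte marker Gfap was lower in CPM in each SRF-KO OL library than in each control OL library. Ckb was lower in each by its share of counts, but its groups overlapped in CPM. Groups did not overlap in CPM, in either direction, for 8.09% of genes tested. Gfap, the astrocyte intermediate filament gene, had 8749, 8977, 7442 and 4778 CPM in SRF-KO OLs and 28228, 17129, 17337 and 12256 CPM in control OLs. Control OL replicate 1 was highest in both genes and control OL replicate 4 lowest among controls in both, while SRF-KO OL replicate 4 had the least Gfap and the most Ckb of its group. The 8 astrocyte markers together summed to 8321 to 13639 CPM in SRF-KO OLs and 16747 to 33832 CPM in control OLs. None of the 8 was called by edgeR, with Gfap at log2 -1.32 (adjusted p = 0.125) and the others between -0.36 for Aqp4 and 0.04 for Agt. Without Gfap the sums were 3543 to 4662 CPM in SRF-KO OLs and 4491 to 5604 CPM in control OLs, which overlap. The 8 myelinating oligodendrocyte markers summed to 12100 to 17391 CPM in SRF-KO OLs and 17536 to 33050 CPM in control OLs. The part of either marker list in the Ckb difference was not tested, and in bulk libraries fewer cells of a type and less RNA per cell cannot be told apart.

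**Figure D2:**
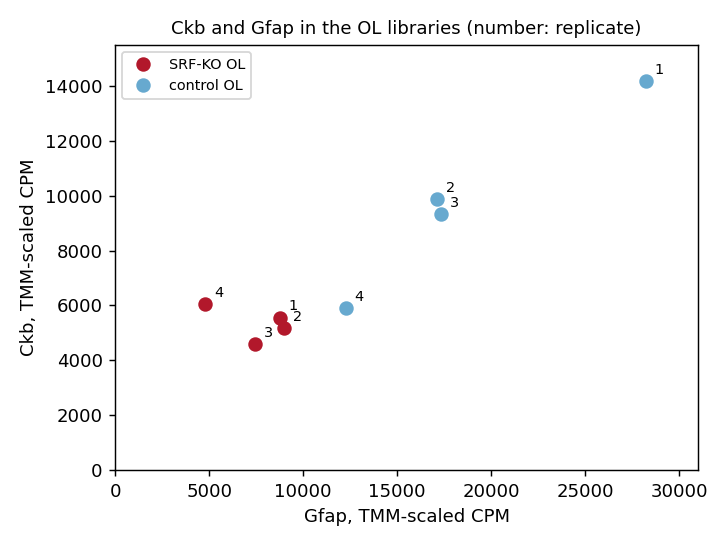
Ckb (y axis) against Gfap (x axis), both in TMM-scaled CPM, in each OL library; numbers give the replicate. SRF-KO OLs lie at 4582 to 6060 CPM of Ckb and control OLs at 5914 to 14162 CPM, with control OL replicate 1 highest in both genes.

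In OPCs Ckb had 6476, 6809 and 6219 CPM in SRF-KO libraries, against 6214, 6445, 5891 and 5956 CPM in control libraries. The groups overlapped, and the log2 fold change was 0.09. The Ckb pseudogenes Ckb-ps1 and Ckb-ps2 had at most 5.01 counts in any library, so few of the Ckb counts could have been assigned to them.

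Ckb made up nearly all creatine kinase counts at both stages. Its share was 99.96% to 99.97% in SRF-KO OLs, 99.98% to 99.99% in control OLs, 98.9% in SRF-KO OPCs, and 99.2% to 99.4% in control OPCs. Ckmt1 made up 0.0308% to 0.0373% in SRF-KO OLs and 0.0033% to 0.0154% in control OLs. It made up 1.09% to 1.12% in SRF-KO OPCs and 0.635% to 0.766% in control OPCs. The Ckmt1 share was therefore higher in each knockout library than in each control library of the same stage. In OPCs this restates the choice of Ckmt1. In OLs it restates the Ckmt1 and Ckb values above and rests on the same few Ckmt1 counts. How often such shares separate the groups for other genes was not computed. Per kilobase of spliced length, Ckb stood at 2515 to 3053 times Ckmt1 in SRF-KO OLs and 6115 to 28590 times in control OLs. The ratio was 83.2 to 85.0 in SRF-KO OPCs and 122 to 147 in control OPCs. Since OL counts appear to take in intronic reads, the ratios of the stages are not on the same scale.

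**Figure D3:**
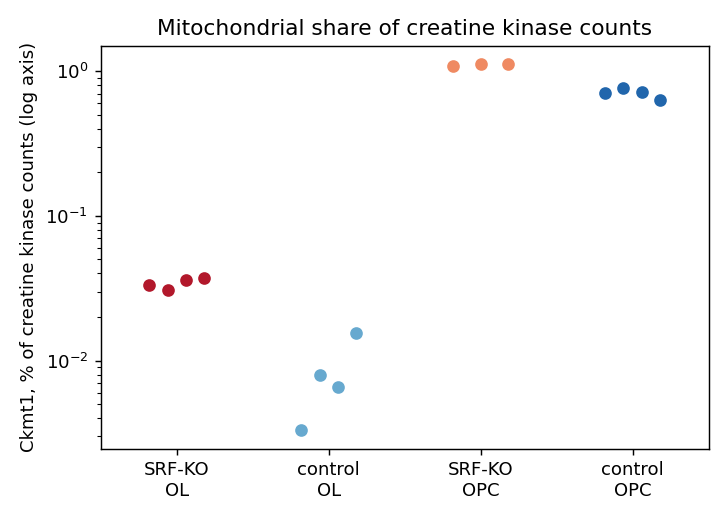
Share of all creatine kinase counts that came from Ckmt1, in percent on a log axis (y axis), by group (x axis); each point is a library. SRF-KO OLs lie at 0.0308% to 0.0373% and control OLs at 0.0033% to 0.0154%, while SRF-KO OPCs lie at 1.09% to 1.12% and control OPCs at 0.635% to 0.766%.

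The muscle isoforms were at or near 0. Ckmt2 (chr13:91853387-91876885, - strand) had no count in any OPC library, which allows up to 0.0898 CPM over the SRF-KO OPCs and 0.0595 CPM over the control OPCs (3 counts over each group). In OLs it had 1, 1, 0 and 1 counts in SRF-KO libraries and 3, 3, 2 and 5 counts in control libraries. The pooled ratio of SRF-KO OL to control OL was 0.332 with a counting interval of 0.0607 to 1.21, which includes no difference. Ckm (chr7:19404776-19422841, + strand) had no count in OPCs and at most 1 count in any OL library. Neither gene passed the low-count filter in any comparison.

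Neither enzyme of creatine synthesis was called in OLs. Gatm (ENSMUSG00000027199, chr2:122594467-122611303, - strand), which catalyses the first step, had 496, 521, 468 and 315 CPM in SRF-KO OLs, against 607, 600, 493 and 477 CPM in control OLs. SRF-KO OL replicate 4 was the lowest library and the groups overlapped. The log2 fold change was -0.27 (SE 0.19, adjusted p = 0.638, edgeR), and -0.04 with library totals in place of TMM. On the deposited TPM scale the log2 ratio of group means was 0.07. In OPCs Gatm had 529, 609 and 532 CPM in SRF-KO libraries and 478, 497, 529 and 492 CPM in control libraries, a log2 fold change of 0.16 in which SRF-KO OPC replicate 1 met the highest control.

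Gamt (ENSMUSG00000020150, chr10:80258151-80261012, - strand), which finishes creatine, had 10.4, 15, 15.6 and 26.6 CPM in SRF-KO OLs, against 14.8, 19.6, 16.7 and 14.6 CPM in control OLs. The lowest and the highest OL library were both SRF-KO. The log2 fold change was 0.02 (SE 0.24, adjusted p = 0.991, edgeR) and fell to -0.30 without SRF-KO OL replicate 4. In OPCs Gamt had 16.8, 13.6 and 14.1 CPM in SRF-KO libraries and 18.3, 13.6, 15.4 and 17.4 CPM in control libraries, with a log2 fold change of -0.13. Per kilobase of spliced length, Gatm was 4.88 to 19.6 times Gamt in SRF-KO OLs and 12.2 to 16.9 times in control OLs. It was 13.0 to 18.5 times Gamt in SRF-KO OPCs and 10.8 to 15.1 times in control OPCs. OL counts appear to take in intronic reads, so the ratios of the stages depend on the length used. By deposited TPM, Gatm averaged 73.5 and Gamt 17.8 in SRF-KO OLs, and 69.8 and 14.4 in control OLs.

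Slc6a8 (ENSMUSG00000019558, chrX:73673150-73682502, + strand), the creatine transporter, had 42.5, 47.1, 43.2 and 56.2 CPM in SRF-KO OLs, against 49.3, 49.3, 51.7 and 45.5 CPM in control OLs. The groups overlapped, with a log2 fold change of -0.05 (SE 0.13, adjusted p = 0.930, edgeR). The sign depended on the scaling, with 0.165 by library totals and 0.35 as the log2 ratio of mean deposited TPM. In OPCs it had 12.7, 24.1 and 12.8 CPM in SRF-KO libraries, against 12.5, 14.7, 12.4 and 10.7 CPM in control libraries. Only SRF-KO OPC replicate 2 stood above the controls; the log2 fold change was 0.40 with it and 0.01 without it.

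In OLs, whose values are outside the stated rule of choice, edgeR called 0 of the 5 members in the fit, against 0.296% of all genes. Earlier results of these data were, however, known when the members were chosen. Ckb had an unadjusted edgeR p of 0.0056, a level under 0.05 that 11.6% of genes reached. Of the members DESeq2 called Ckb alone, and of all genes it called 290 of 15100. Ckmt1 entered the fit only through the group in which it is higher, so its p is not given or read against that share. TMM and library totals placed the median gene at log2 0.02 and 0.24 in OLs, so the fold changes of the members shifted by about that difference with the scaling.

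**Figure D4:**
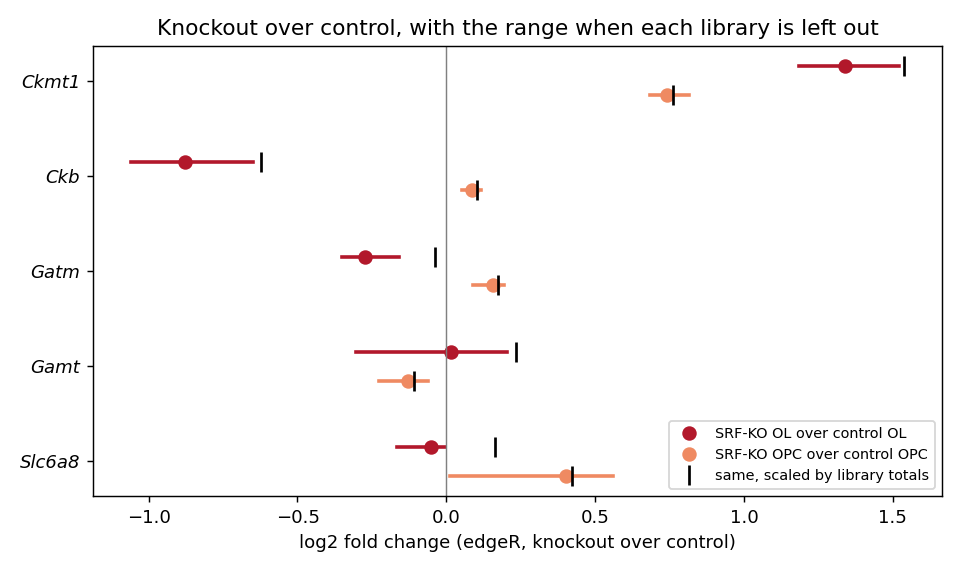
log2 fold change of SRF-KO over control (x axis) for the 5 measured members (y axis) in OLs and OPCs. Dots are the edgeR values, lines the range when each library is left out in turn, and black ticks the value scaled by library totals. Ckmt1 lies at 1.34 in OLs and 0.74 in OPCs, Ckb at -0.88 in OLs and 0.09 in OPCs, and the Gamt line in OLs crosses 0.

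Of the 5 members measured at both stages, Ckmt1 and Slc6a8 had the largest log2 differences between OLs and OPCs. The OL files list gene lengths that equal the genomic span, introns included, for 90.0% of 8995 single-transcript genes with introns, and the OPC files list spliced lengths for 89.8% of them. OL counts thus appear to take in intronic reads, and quantification, virus and stage cannot be told apart. Astrocyte marker sums also differed between the stages, at 8321 to 33832 CPM in OLs and 1419 to 1621 CPM in OPCs, and their part in the stage results was not tested. As background, 42.5% of genes were higher and 37.1% lower in control OLs than in control OPCs, and 37.6% were higher and 28.9% lower in SRF-KO OLs than in SRF-KO OPCs.

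Ckmt1 was lower in OLs in every library. In the fits, SRF-KO OLs stood at log2 -5.08 relative to SRF-KO OPCs, and control OLs at log2 -5.66 relative to control OPCs. Its order of levels was SRF-KO OPCs, control OPCs, SRF-KO OLs, control OLs, with no overlap between neighbours (34.4% of all genes in controls and 30.6% in knockouts were lower in OLs without overlap); no test is given, since the OPC values took part in its choice. The genomic span of Ckmt1 is 2.41 times its exons, so intronic reads could add to the OL count only.

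Slc6a8 went the other way. It was higher in SRF-KO OLs than in SRF-KO OPCs by log2 1.72 (SE 0.26, adjusted p = 0.000155, edgeR). In controls it was higher in OLs by log2 2.20 (SE 0.11, adjusted p = 1.17e-09, edgeR). The smallest value over the refits, all on the same counts, was 1.545 in knockouts and 1.85 in controls. Mean deposited TPM was 19.6 in SRF-KO OLs and 8.04 in SRF-KO OPCs, and 15.4 in control OLs and 6.16 in control OPCs. All OL libraries were above all OPC libraries, as for 40% of all genes in controls and 36.9% in knockouts. The gene span is 1.80 times its exons, and the mean listed length was 7078 bases in control OLs and 3050 bases in control OPCs. Intronic reads could thus add to the OL count of Slc6a8, and their part was not tested.

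Ckb was higher in control OLs than in control OPCs by log2 0.92 (SE 0.21, adjusted p = 0.00131, edgeR), and by 0.54 with library totals. In knockouts the stage difference was -0.05 (SE 0.16, adjusted p = 0.804, edgeR), and the difference between these stage effects was not tested. The span of Ckb is 1.03 times the union of exons of its 5 transcripts. The length listed for Ckb was nonetheless 1478 bases in OPC libraries and 2984 bases in OL libraries. Intronic reads could thus add to its OL count too, and their part in the stage difference was not tested. Gatm was called higher in control OLs (log2 0.37, SE 0.10, adjusted p = 0.00426, edgeR), but library totals gave 0.02 and adjusted p = 0.880. It stood at -0.07 in knockouts (adjusted p = 0.768, edgeR). Gamt stood at 0.27 in controls (adjusted p = 0.102) and 0.41 in knockouts (adjusted p = 0.218, edgeR), and was not called in either.

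Levels were also ordered between members, per length. By deposited TPM, Ckb led with 6881 ± 178 in SRF-KO OPCs (n = 3) and 6781 ± 373 in control OPCs (SD, n = 4). Gatm followed with 339 ± 23 TPM in SRF-KO OPCs and 320.4 ± 39 TPM in control OPCs. Ckmt1 came next with 83.2 ± 3.7 TPM in SRF-KO OPCs and 51.8 ± 6.1 TPM in control OPCs. Below it were Gamt, with 26.4 ± 3.7 TPM in SRF-KO OPCs and 29.6 ± 4.1 TPM in control OPCs, and Slc6a8, with 8.04 ± 3.16 TPM in SRF-KO OPCs and 6.16 ± 0.93 TPM in control OPCs. In OLs, in CPM per kilobase of spliced length, Ckb averaged 3618 ± 422 in SRF-KO and 6646 ± 2289 in control libraries. Gatm followed with 189 ± 39 in SRF-KO and 228 ± 29 in control OLs. Gamt had 17.2 ± 7.0 in SRF-KO and 16.7 ± 2.4 in control OLs, and Slc6a8 15.8 ± 2.1 in SRF-KO and 16.4 ± 0.9 in control OLs, a pair that did not differ beyond its spread. Ckmt1 came after them with 1.33 ± 0.22 in SRF-KO and 0.50 ± 0.14 in control OLs (SD, n = 4 each). Ckmt1 thus ranked above Gamt and Slc6a8 in OPCs and below both in OLs.

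The surrounding metabolism was described by 8 lists that name 125 genes. In OLs 103 of them were tested and edgeR called none, against 0.296% of all genes, while 19 had an unadjusted p under 0.05, a level reached by 11.6% of all genes. In OPCs 99 were tested and none was called, against 0.0678%, with 12 under 0.05 unadjusted (11.9% of all genes). Among phosphotransfer enzymes, which include adenylate kinases and nucleoside diphosphate kinases, the 14 tested in OLs ran between log2 -0.21 and 0.68 with a median of 0.19, against 0.02 for all genes. The most abundant, Ak3, an adenylate kinase of the mitochondrial matrix, had 333 ± 125 CPM in SRF-KO OLs and 329 ± 17 CPM in control OLs (SD, n = 4 each; adjusted p = 0.989, edgeR). In OPCs the most abundant was Nme1, a nucleoside diphosphate kinase, with a log2 fold change of 0.13. Among mitochondrial exchange proteins, Slc25a5, which swaps ADP for ATP across the inner membrane, had 992 ± 223 CPM in SRF-KO OLs and 852 ± 132 CPM in control OLs (SD, n = 4 each; adjusted p = 0.741, edgeR). Its log2 fold change in OPCs was 0.03.

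The pathways that feed creatine synthesis were likewise not called. Of arginine and ornithine genes, 13 were tested in OLs with a median of log2 0.11. Oat, which converts the ornithine released by Gatm, stood at 0.04 (adjusted p = 0.957, edgeR). In OPCs the most abundant of that list, Azin1, stood at -0.02. Of the methyl donor genes, 13 were tested with a median of -0.02, and Mat2a, which makes the S-adenosylmethionine that Gamt uses, stood at 0.13 in OLs (adjusted p = 0.858, edgeR) and 0.05 in OPCs. The 19 glycolysis genes had a median of -0.08 in OLs, with Aldoa at -0.31 (adjusted p = 0.651, edgeR), and Eno1 stood at 0.07 in OPCs. The 15 tested ATP synthase subunit genes had a median of -0.12 in OLs and 0.16 in OPCs, with Atp5b at -0.12 (adjusted p = 0.867, edgeR) and -0.10. Regulators of mitochondrial biogenesis had a median of 0.00 in OLs and -0.17 in OPCs, with Gabpa at -0.002 in OLs (adjusted p = 0.999, edgeR) and Polg, the mitochondrial DNA polymerase, at -0.30 in OPCs. Of 14 muscle energy and SRF-linked muscle genes only 6 passed the filter in OLs, with a median of -0.11 and Mef2a at 0.13 (adjusted p = 0.790, edgeR), and at -0.16 in OPCs. Between stages, edgeR called 23 list genes higher and 58 lower in control OLs of 102 tested, and 19 higher and 52 lower in SRF-KO OLs of 103 tested, against the backgrounds given above.

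The genes whose pattern was most like each member were found by Pearson's r of log2 CPM across the libraries of a stage. In the 7 OPC libraries, among 9737 genes compared, Ckmt1 was most like Ddx19b (r = 0.985, Spearman's rho = 0.857), Dcxr (0.983 and 0.964) and Plcd4 (0.983 and 0.964). Without the 2 libraries farthest from the Ckmt1 median these r were 0.987, 0.964 and 0.970. In the 8 OL libraries, among 10498 genes, Ckb was most like Cd80 (r = 0.993, rho = 0.976), Gm12892 and Mtch1. Slc6a8 was most like Glycam1 and Sin3a, both with r = 0.974 and rho = 0.952. Such values are the highest of all genes compared, over few libraries that share depth and group, and are given as a description.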

How the data were processed

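RNA from 15 mouse libraries (4 SRF-KO OL, 4 control OL, 3 SRF-KO OPC, 4 control OPC; groups from the titles) was made into Smart-seq2 polyA libraries without strand information and read as single reads of 63 bases, per the labels' protocols. The SRF-KO OL treatment tag ends in "control" but names a Cre virus. Per the submitters' processing notes, the authors used bcl2fastq, STAR and RSEM with the builds GRCm38 and Rnor_6.0, whose roles are not stated; versions are not given in the sources used here. The deposited RSEM files give the expected count per gene, the authors' estimate in which reads matching several genes are shared out. The deposited TPM values divide those counts by effective length. FPKM was not used. Members and lists were chosen with earlier results of these data known.

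Expected counts were rounded and fitted in edgeR 4.0.16 (R 4.3.3): filterByExpr (minimum count 10), TMM, quasi-likelihood F-test, Benjamini-Hochberg over all genes tested, threshold 0.05, using only the groups compared; the script was tested on simulated data. The standard error is the absolute log2 fold change over the square root of F. CPM use TMM factors fitted within a stage, so stage log2 fold changes come from the fit, not from these CPM. Alternatives were size factors, library totals, no filter, DESeq2 1.42.0, a replicate block and leaving out each library. Lists were read gene by gene; the most abundant tested gene of each list is named, and likeness took the 3 highest r among genes of average log2 CPM 3 or more. Coordinates are GENCODE M21 on GRCm38. Symbols matched 45143 of 45706 identifiers. Same-numbered replicates showed correlations of at most 0.0897 in their deviations, so the main fits did not pair libraries by number. So few pairs cannot settle whether the numbers pair libraries. Intervals and floors cover counting error only.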

Additional observations from a re-analysis of the deposited data

Results flagged for a closer look

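The log2 fold changes of 2 members had opposite signs at the 2 stages, with every knockout library of a stage on 1 side of its control mean. The share of all genes that meet this rule was not computed. In CPM the groups of both genes overlapped at both stages, and edgeR called neither in OLs. The log2 fold change of Ckb was -0.88 in OLs and 0.09 in OPCs, a difference of -0.96. That of Gatm was -0.27 in OLs and 0.16 in OPCs, a difference of -0.43. The OL value of Gatm was -0.04 with library totals, where SRF-KO OL replicates 1 to 3 lay at 537, 557 and 529 CPM and control OLs at 448 to 531 CPM, and 0.07 by deposited TPM, so with those scalings the knockout libraries did not all lie below the controls' mean. Neither difference was tested, the stages were quantified differently, and the OPC contrast took part in choosing the genes. Within groups of 4 libraries, no member had a library that stood apart by Dixon's test. The 3 SRF-KO OPC libraries were not checked by it, and Slc6a8 had 12.7, 24.1 and 12.8 CPM in them.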

How the results depend on the processing

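Of 250 recomputed member values, 232 kept their direction and their side of the threshold or stayed within the spread between replicates, 12 reversed, 2 newly passed the threshold, 1 lost it and 3 moved beyond the spread. In OLs the 45 called genes became 74 with library totals, 129 without a filter, 290 with DESeq2, 5 with the replicate block and 7 to 636 when 1 library was left out (636 without SRF-KO OL replicate 4, 71 without control OL replicate 4, 14 without control OL replicate 1, 7 or 8 without either of control OL replicates 2 and 3 or SRF-KO OL replicates 2 and 3). In OPCs the 9 called genes became 101 without a filter, 121 with DESeq2, 2 with the replicate block and 1 to 4 when any 1 library was left out. The replicate block changed no member's call. Ckb in OLs was called by DESeq2 (log2 -0.89, adjusted p = 0.015). Gamt in OLs changed sign without a filter (-0.00096), with the replicate block (-0.0315) and when 1 library was left out, over a range of -0.305 (without the fourth SRF-KO OL library) to 0.203. Slc6a8 in OLs was 0.165 with library totals, also in CPM by library totals, an alternative chosen after seeing the data. In the stage comparison of controls, Gamt was -0.0761 with library totals and was called with size factors (0.335, adjusted p = 0.0473), and Gatm lost its call with library totals (0.02). In that of knockouts, Ckb ranged between -0.103 and 0.0250 and Gatm between -0.140 and 0.0761 when 1 library was left out, and Gatm was 0.0796 with the replicate block. The causes were not tested. Depth limits Ckmt1 in OLs (4 to 22 counts a library), Ckmt2 and Ckm.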

Other observations

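Ak1, a cytosolic adenylate kinase that also moves phosphate between nucleotides, and Ass1, which makes the precursor of arginine, were singled out after their values were seen. Ak1 averaged 60.9 ± 9.3 CPM in SRF-KO OLs and 40.0 ± 3.5 CPM in control OLs (SD, n = 4 each), with a log2 fold change of 0.60 (SE 0.14, adjusted p = 0.154, edgeR). In OPCs it averaged 164.5 ± 12.8 CPM in SRF-KO (n = 3) and 123 ± 9.8 CPM in control libraries (SD, n = 4), a log2 fold change of 0.42. Ass1 averaged 1.95 ± 0.27 CPM in SRF-KO OLs and 0.70 ± 0.25 CPM in control OLs (SD, n = 4 each), a log2 fold change of 1.49. Its control OL mean lies under the 0.884 CPM limit of the low-count filter, so no test is given. In OPCs it averaged 3.72 ± 0.77 CPM in SRF-KO (n = 3) and 1.32 ± 0.45 CPM in control libraries (SD, n = 4), a log2 fold change of 1.48. For both genes the groups did not overlap at either stage, as for 8.09% of all genes in OLs and 12.2% in OPCs, and Ak1 was not called at either.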
